A study of Mus musculus with 16 samples.

Results

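Polyamine metabolism was followed at the level of RNA and translation in 8 genes: the enzymes Odc1, Amd1, Srm, Sms and Sat1, the antizymes Oaz1 and Oaz2, and the antizyme inhibitor Azin1. The genes were selected by their symbols among the 22392 gene symbols of the count table, and each was represented by the annotated transcript with the largest sum over the 16 libraries. None of them was selected by a measured value. Ribosome profiling (Ribo-seq, which sequences the mRNA fragments covered by ribosomes) and RNA-seq had been performed on shared lysates of Hepa1-6 cells, a mouse hepatoma line. The lines were WT Hepa1-6 and 3 Eef1d exon 5 knockout (KO) lines, called KO1, KO2 and KO3 for clones #1, #2 and #3, with 2 replicates per line and assay. EEF1D is a subunit of the translation elongation factor eEF1B, and CRISPR-Cas9 had been used with pairs of single guide RNAs to delete exon 5 of its gene. Clones #1 and #2 came from the same guide pair and clone #3 from another. Each KO line was derived by limiting dilution from 1 edited cell after puromycin selection, so that a difference from WT may belong to the clone as well as to the deletion, and these cannot be told apart. No drug or diet treatment distinguished the groups, and all lysates were prepared in cycloheximide and chloramphenicol.

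Polyamines (putrescine, spermidine and spermine) are small positively charged molecules that bind RNA and are needed for growth. ODC1 makes putrescine from ornithine, AMD1 provides the aminopropyl donor by decarboxylating S-adenosylmethionine, SRM and SMS then build spermidine and spermine, and SAT1 acetylates both for export or breakdown. Antizymes bind ODC1 and direct it to the proteasome, AZIN1 binds antizyme in place of ODC1, and translation of both antizymes and AMD1 is known to respond to polyamines, through a +1 frameshift and a short upstream open reading frame, respectively.

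The sequences at which this control is known to act are shown as they stand in GRCm38 (mm10), from the RefSeq assembly. The frameshift sites lie within coding exons of Oaz1 (chr10:80828281-80828310, plus strand) and Oaz2 (chr9:65686258-65686287, plus strand). Capitals mark the last codon before the shift, the stop codon of the first frame, and the base after it. The annotated coding sequence skips 1 base, the T that begins this stop codon, at position 80828295 in Oaz1 and 65686272 in Oaz2. The upstream open reading frame of Amd1 lies in its 5′ UTR (chr10:40302155-40302175, minus strand), and capitals mark its start and stop codons.
Oaz1 frameshift site: ctcggtggtgcTCCTGATgtccctcaccca
Oaz2 frameshift site: ctctgtggtgcTCCTGATgcccctcaccca
Amd1 upstream open reading frame: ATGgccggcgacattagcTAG

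Both antizymes carry the same 7 bases at the site. The Amd1 frame has 6 sense codons and ends 296 bases before the main start codon. It begins at base 12 of the transcript and holds the only upstream ATG in that 5′ UTR of 328 bases. Odc1 has 2 upstream ATGs in 489 bases, Azin1 has 3 in 590, Sms has 4 in 334 and Sat1 has 2 in 281, whereas Oaz1, Oaz2 and Srm have none. Of the 9589 measured genes with a matched annotation, 46.9% have at least 1 upstream ATG, and the median 5′ UTR is 157 bases. For Amd1, these values belong to the transcript with a coding sequence of RefSeq length, because the longer one whose counts represent Amd1 was not located on the genome here. Counts were made on annotated coding sequences without their first and last 5 codons. Whether an upstream frame overlaps a counted coding sequence was checked only for this transcript of Amd1.

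The 8 genes are spread over 6 chromosomes of GRCm38. On the plus strand, Odc1 lies at chr12:17544808-17551502, Oaz1 at chr10:80826656-80829290, Oaz2 at chr9:65676548-65690300 and Srm at chr4:148591513-148594619. On the minus strand, Amd1 lies at chr10:40287458-40302188, Azin1 at chr15:38487430-38519294, Sms at chrX:157443851-157492287 and Sat1 at chrX:155213126-155216449.

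The RNA-seq libraries held 24726706 to 30748268 counts over all transcripts. The Ribo-seq libraries held 2604223 to 11147904, and both extremes were KO1 libraries (replicate 2 and replicate 1). A transcript of Eef1d that includes exon 5 had 116% of the RNA counts of a transcript that lacks it in both WT libraries, and 89.8 to 92.6% in the 6 KO libraries, lower in every library labelled KO. Of 9 hepatocyte markers, Alb, Afp, Trf, Apob and Hnf4a were present in all RNA-seq libraries, while Apoa1, Ttr and Serpina1a did not pass 1.27 CPM (counts scaled to a common library total). The summed level of the 9 markers was 2317 to 2488 CPM in WT, 913 in both KO1 libraries, 1831 to 1959 in KO2 and 3469 to 3642 in KO3. The largest terms of this sum were Alb, Afp and Trf, with up to 1882, 1160 and 753 CPM. Not every single marker followed the order of lines of the sum. In bulk samples of a cell line, fewer cells that express a marker and less marker RNA per cell cannot be told apart.

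In WT cells, Oaz1 and Odc1 were by far the most abundant of the 8 mRNAs. Per coding length, the WT RNA-seq level was 517 TPM (counts per coding length, scaled to a common total) for Oaz1 and 493 TPM for Odc1, above 96.9% and 96.8% of the 9634 genes with at least 10 counts in each WT library. Srm followed at 127 TPM, Amd1 at 94.1, Azin1 at 91.3, Sms at 46.6, Sat1 at 44.9 and Oaz2 at 36.6 TPM. The order of the footprint levels was different, with 228 TPM for Oaz1, 135 for Srm, 124 for Odc1, 62.8 for Azin1, 37.8 for Sms, 26.0 for Amd1, 25.5 for Sat1 and 22.4 for Oaz2. Per coding length, the mean footprint level of Srm was thus above that of Odc1, from less RNA. This order rested on replicate 1 (138 against 115 TPM), since both genes stood at 132 TPM in replicate 2. Without scaling by length, Odc1 had more footprints (209 and 230 CPM, against 162 and 149 CPM for Srm).

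**Figure D1:**
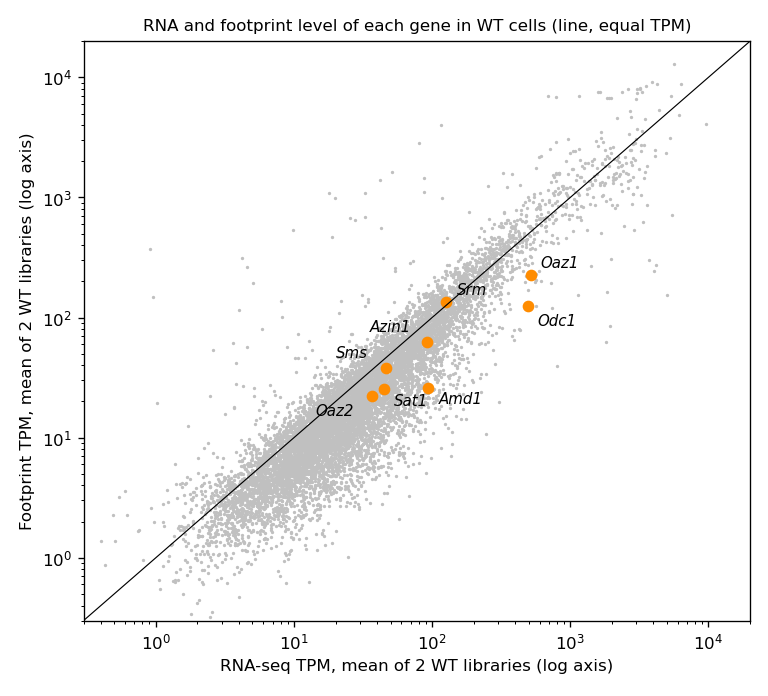
RNA-seq level (horizontal, TPM, log axis) against footprint level (vertical, TPM, log axis) of 9634 genes in WT cells, each the mean of 2 libraries, with the 8 polyamine genes in orange and a line at equal TPM. Odc1 (493 and 124 TPM) and Amd1 (94.1 and 26.0 TPM) lie far below the line, and Srm (127 and 135 TPM) lies on it.

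Translation efficiency (TE) was taken as the log2 ratio of footprint CPM to RNA CPM. In the WT replicates, log2 TE was -1.79 and -1.61 for Odc1, -1.38 and -1.76 for Amd1, and -0.80 and -0.98 for Oaz1, against a median of -0.15 over all genes. The means of these 3 genes stood at percentiles 6.26, 7.75 and 19.9 of all genes. Sat1 stood at percentile 32.6, Oaz2 at 38.2, Azin1 at 45.3 and Sms at 57.8. Srm, the spermidine synthase, had the highest TE of the 8 genes, with log2 TE of 0.35 and 0.42 and a mean at percentile 78.7. The WT replicates of Odc1 and Amd1 overlapped, as did those of Oaz2 with Azin1 and with Sat1, so that these neighbours in the order were not separated. These percentiles describe WT cells and were not tested.

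How far reads could be assigned to these genes differed among them. Of all 30-base windows of the coding sequence, a length close to that of a footprint, and with the transcript of RefSeq length for Amd1, 100% were also found in an annotated transcript of another gene for Amd1 and Sms, 91.0% for Oaz1, 83.0% for Odc1, 63.6% for Oaz2, 42.6% for Sat1, 18.1% for Srm and 0 for Azin1. The genes that shared most windows were Oaz1-ps for Oaz1, Gm7993 for Odc1 and Sms-ps for Sms. The shared windows made up 83.0 to 100% for the 3 genes of lowest TE, and 100% for Sms, whose mean TE was above the median. The part of shared sequence in the TE levels was not tested.

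For Amd1, the transcript with the largest sum has 454 counted codons, while the RefSeq coding sequence has 325. The shorter one had 73.0 to 77.2% of the RNA counts of the longer one, but 95.0 to 99.0% of its footprints, and with it the WT TE of Amd1 stood at percentile 13.2 instead of 7.75. This choice was made after the data were seen. Amd2, a copy whose coding sequence is identical to that of Amd1 at 1001 of 1002 bases, had 97.7 to 102.6% of the footprint counts of Amd1 and 17.5 to 22.1% of its RNA counts. Footprints of Amd1 and Amd2 can therefore not be told apart.

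For each clone, counts were compared with WT by edgeR's quasi-likelihood test, and an adjusted p under 0.05 over all genes (Benjamini-Hochberg) was called. All 8 genes passed the filter on low counts in every comparison. The WT libraries are shared by the 3 comparisons, which are therefore not independent. At the RNA level, 5 of 8 genes were called in KO1 (1 rose, 4 fell), where 46.7% of all genes were called, 2 of 8 in KO2 (both fell), where 20.4% were called, and 4 of 8 in KO3 (3 rose, 1 fell), where 45.4% were called. In footprints, 2 of 8 genes were called in KO1 (26.9% of all genes), 3 in KO2 (11.7%) and 2 in KO3 (30.6%), and all of these fell. These shares of the 8 genes were near those of all genes in most comparisons, and farthest above them for footprints in KO2. For the RNA change, the median over the 8 genes was -0.21 (KO1), -0.08 (KO2) and -0.05 (KO3) on the log2 scale, beside 0.00 over all genes in each clone.

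**Figure D2:**
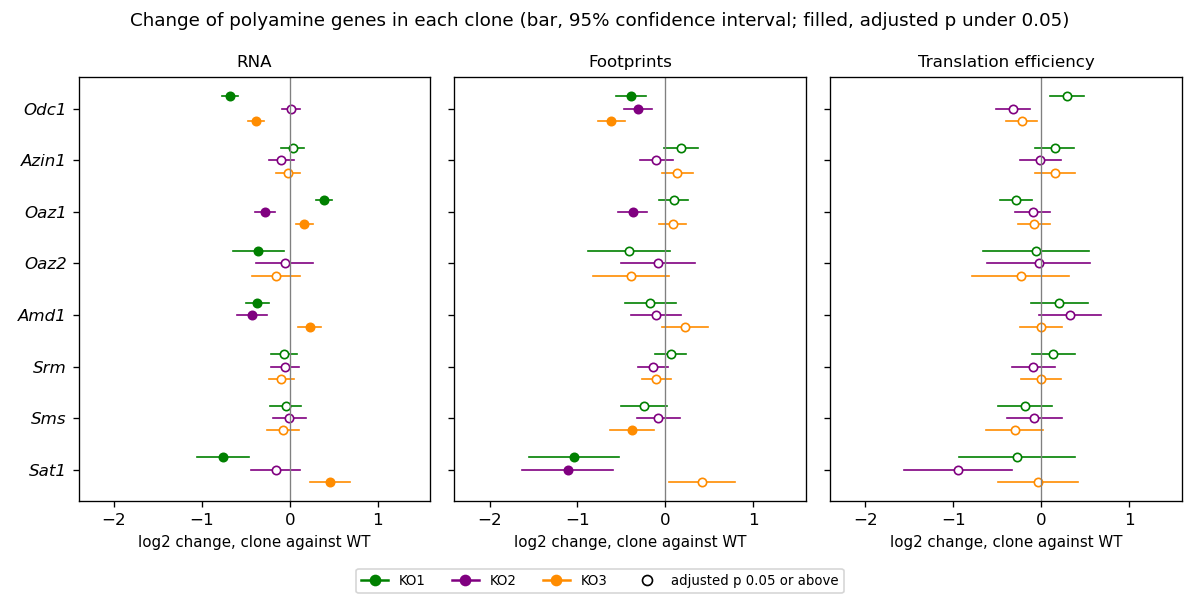
Log2 change against WT (horizontal axis) of the 8 genes in KO1, KO2 and KO3 for RNA, footprints and TE, with 95% confidence intervals as bars and filled points at an adjusted p under 0.05. Footprints of Odc1 lie to the left of 0 in all 3 clones, Srm and Azin1 lie near 0 throughout, and no TE point is filled.

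Odc1, the enzyme that opens the pathway, had fewer footprints in all 3 clones. Footprints were 209 and 230 CPM in WT, 172 and 160 CPM in KO1, 174 and 178 CPM in KO2, and 144 and 144 CPM in KO3. All 6 KO libraries lay below both WT libraries. The log2 change in footprints was -0.39 in KO1 (SE 0.084, adjusted p = 0.000268), -0.31 in KO2 (SE 0.077, adjusted p = 0.00629) and -0.61 in KO3 (SE 0.078, adjusted p = 2.02e-08). In KO2, the call rested on the replicates and the tool: without WT replicate 2 the adjusted p was 0.110, and with DESeq2 it was 0.196. The calls in KO1 and KO3 held in all 12 alternatives each.

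The RNA of Odc1 did not follow this pattern in every clone. RNA-seq levels were 723 and 702 CPM in WT, 461 and 431 CPM in KO1, 747 and 691 CPM in KO2, and 553 and 537 CPM in KO3. The KO1 and KO3 libraries were below both WT libraries, whereas those of KO2 enclosed them. Odc1 RNA fell by 0.68 on the log2 scale in KO1 (SE 0.045, adjusted p = 1.69e-18) and by 0.39 in KO3 (SE 0.046, adjusted p = 2.16e-11). In KO2, the log2 change in RNA was 0.02 (95% confidence interval -0.09 to 0.12, adjusted p = 0.884).

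TE of Odc1 accordingly stood on different sides of WT. Log2 TE was -1.79 and -1.61 in the WT replicates, against -1.43 and -1.43 for KO1, -2.10 and -1.95 for KO2, and -1.95 and -1.90 for KO3. The replicates of each clone did not overlap with those of WT, with KO1 above and KO2 and KO3 below. The log2 TE change was 0.30 in KO1 (95% confidence interval 0.10 to 0.49, unadjusted p = 0.00355), -0.33 in KO2 (-0.52 to -0.13, unadjusted p = 0.00163) and -0.22 in KO3 (-0.40 to -0.04, unadjusted p = 0.0154) by edgeR, and none passed the threshold after adjustment over all genes (adjusted p = 0.410, 1.00 and 0.687). With thinned libraries the change in KO3 was -0.10, and without WT replicate 1 it was 0.19 in KO1. The F test of whether the 3 TE changes were equal was passed by Odc1 (adjusted p = 0.000131), where 1.03% of all genes were called. Without KO1 replicate 1, which leaves the smallest Ribo-seq library as the only one of KO1, the adjusted p of this test was 0.105, and it was 0.0679 after every library was thinned to the depth of the shallowest one of its assay.

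**Figure D3:**
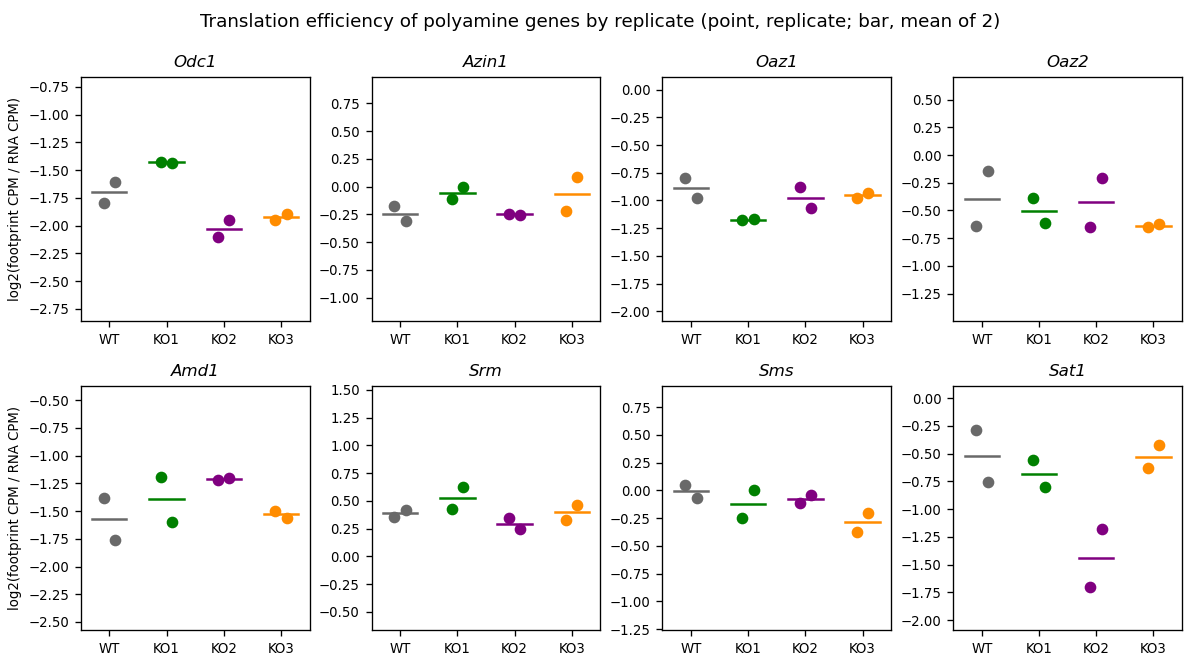
Log2 TE (vertical axis, log2 of footprint CPM over RNA CPM) of the 8 genes in each replicate of WT, KO1, KO2 and KO3, with bars at the mean of 2 and each panel spanning the same height. For Odc1, KO1 lies at -1.43 in both replicates, above WT (-1.79 and -1.61), and KO2 and KO3 lie below, whereas the replicates of Amd1, Oaz2 and Sat1 are spread more widely.

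The 2 antizymes differed in abundance and in their changes. Oaz1, the major antizyme, had RNA-seq levels of 358 and 364 CPM in WT, 481 and 464 CPM in KO1, 286 and 308 CPM in KO2, and 413 and 398 CPM in KO3. Each clone lay outside the WT range, with KO1 and KO3 above and KO2 below. Oaz1 RNA rose by 0.39 on the log2 scale in KO1 (SE 0.047, adjusted p = 9.27e-10) and by 0.17 in KO3 (SE 0.051, adjusted p = 0.00436), and it fell by 0.28 in KO2 (SE 0.056, adjusted p = 0.000786). The call in KO3 was lost without WT replicate 1 (adjusted p = 0.0732) and with library totals in place of TMM scaling (adjusted p = 0.0524).

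Footprints of Oaz1 were 205 and 185 CPM in WT, 213 and 207 CPM in KO1, 155 and 147 CPM in KO2, and 210 and 209 CPM in KO3. They were lower in KO2 by 0.37 on the log2 scale (change -0.37, SE 0.079, adjusted p = 0.00153). The call was lost with DESeq2 (adjusted p = 0.101) and with thinned libraries (adjusted p = 0.0764). It was also lost without WT replicate 1 (change -0.29). In KO1 and KO3 the footprint changes were 0.09 and 0.08 (adjusted p = 0.452 and 0.443). TE of Oaz1 was -0.80 and -0.98 in WT and -1.18 and -1.17 in KO1, a log2 change of -0.29 (95% confidence interval -0.47 to -0.10, unadjusted p = 0.00348, adjusted p = 0.410). When the lysate that the 2 assays of a replicate share was entered as a block, the TE change of Oaz1 in KO1 was -0.30 with an adjusted p of 0.0448, in a fit that called 0.711% of all genes. The same fit gave no call among the 8 genes in KO2 (0.0346% of all genes) or KO3 (0.112%).

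On another annotated transcript of Oaz1, footprint counts were lower relative to the transcript used here than RNA counts were. That transcript lacks the first coding exon and has 167 counted codons, against 218. It had 96.0 to 100.4% of the RNA counts of the transcript used here, but 44.2 to 58.1% of its footprints. In KO3 replicate 2 it had more RNA counts (4883 against 4864), so that its counted region is not simply a part of the longer one. Where along the coding sequence the footprints lie was not determined. This share of footprints was 58.1 and 56.2% for the WT replicates, against 56.5 and 44.2% for KO1, 53.1 and 54.1% for KO2 and 54.0 and 50.5% for KO3. The share was below both WT replicates in KO2 and KO3 and overlapped with WT in KO1, where the lowest value came from the smallest library with 242 footprints. It was not tested.

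Oaz2, the second antizyme, had the lowest mean RNA level of the 8 genes in WT per coding length. Sat1 was lower than Oaz2 in WT replicate 1 (41.3 against 43.0 TPM) and in the KO1 mean (26.2 against 28.0 TPM). RNA-seq levels of Oaz2 were 24.8 and 17.4 CPM in WT, 15.9 and 17.0 CPM in KO1, 22.7 and 17.8 CPM in KO2, and 19.0 and 18.8 CPM in KO3. All KO libraries lay between or below the WT replicates, which differed more from each other than the replicates of any clone. Oaz2 RNA was called lower in KO1 (log2 change -0.35, SE 0.146, adjusted p = 0.0407), but without WT replicate 1 the change was -0.08 (adjusted p = 0.770), without KO1 replicate 1 the adjusted p was 0.149, and with DESeq2 it was 0.254. Footprints of Oaz2 numbered 13 to 60 per library and were not called in any clone, with changes of -0.42, -0.09 and -0.40 in KO1, KO2 and KO3.

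Azin1, which frees ODC1 from antizyme, was not called in any clone at either level. Its RNA-seq levels spanned 115 to 137 CPM over all 8 libraries, and the RNA changes of 0.03, -0.10 and -0.02 had 95% confidence intervals within -0.24 to 0.16. Its footprints were 113 and 104 CPM in WT, 121 and 131 CPM in KO1, 105 and 96.6 CPM in KO2, and 118 and 123 CPM in KO3. The log2 footprint changes of Azin1 were 0.18 for KO1, -0.11 for KO2 and 0.13 for KO3, and they differed between the clones (F test, adjusted p = 0.00977, and 0.147 without KO2 replicate 2).

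**Figure D4:**
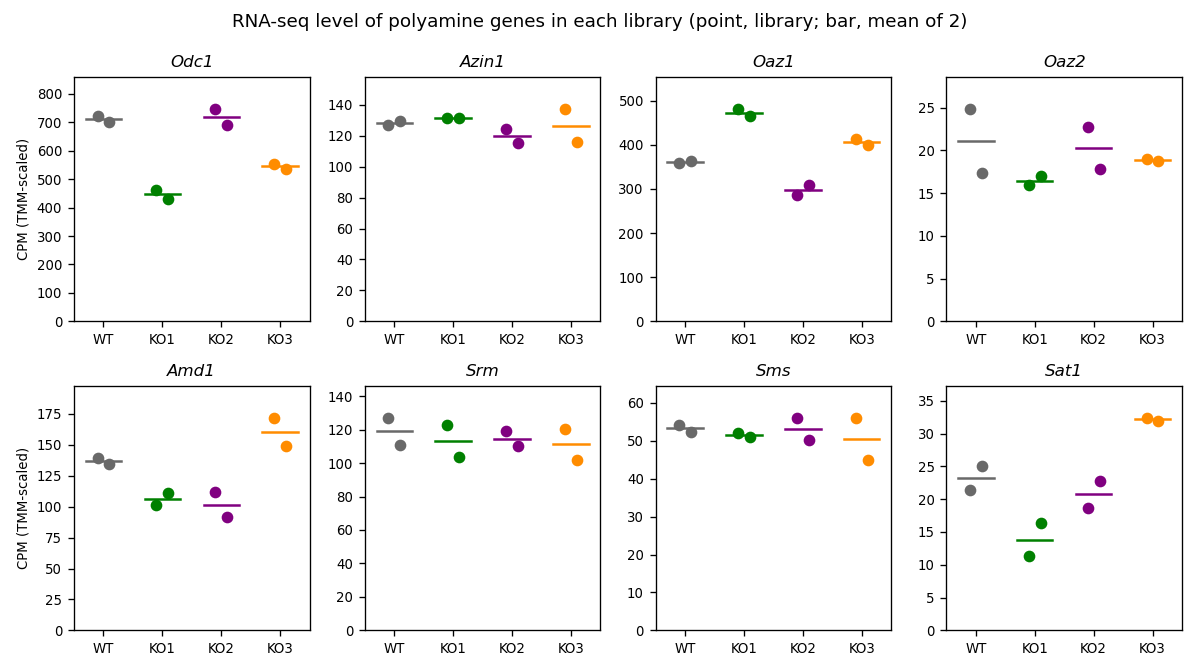
RNA-seq level (vertical axis, CPM on TMM-scaled library totals, starting at 0) of the 8 genes in each library of WT, KO1, KO2 and KO3, with bars at the mean of 2. Odc1 is lower in KO1 and KO3, Oaz1 is higher in KO1 and lower in KO2, and Azin1, Srm and Sms show overlapping or near levels in all lines.

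Amd1, which supplies the aminopropyl donor, changed in RNA but was not called in footprints. RNA-seq levels were 139 and 134 CPM in WT, 101 and 111 CPM in KO1, 112 and 91.3 CPM in KO2, and 172 and 149 CPM in KO3. KO1 and KO2 lay below both WT libraries and KO3 above them. Amd1 RNA fell by 0.37 on the log2 scale in KO1 (SE 0.067, adjusted p = 7.01e-06) and by 0.43 in KO2 (SE 0.080, adjusted p = 0.000402), and it rose by 0.23 in KO3 (SE 0.065, adjusted p = 0.00259). The rise in KO3 was not called without KO3 replicate 1 (change 0.12, adjusted p = 0.180) or without WT replicate 2 (adjusted p = 0.0640). With the 325-codon transcript, the RNA changes were -0.36, -0.46 and 0.22, and all were called.

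Footprints of Amd1, which include those of Amd2, were 53.4 and 39.7 CPM in WT, 44.3 and 36.7 CPM in KO1, 47.8 and 39.6 CPM in KO2, and 60.8 and 50.4 CPM in KO3. Every clone overlapped with WT. The footprint changes were -0.17, -0.11 and 0.22, with 95% confidence intervals of -0.46 to 0.12, -0.39 to 0.18 and -0.04 to 0.49, and the RNA changes of KO1 and KO3, but not that of KO2, lay within them. Without WT replicate 1 the footprint change in KO3 was called (0.49, adjusted p = 0.0227), and the changes in KO1 and KO2 turned to 0.09 and 0.15 (adjusted p = 0.824 and 0.730). TE of Amd1 was -1.38 and -1.76 in WT, -1.19 and -1.60 for KO1, -1.22 and -1.21 for KO2, and -1.50 and -1.56 for KO3, and its changes of 0.20, 0.32 and 0.00 were not called. Without WT replicate 1 these TE changes were 0.44, 0.56 and 0.24, none of them called.

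The synthases that add aminopropyl groups were not called in RNA. Srm RNA-seq levels were 127 and 111 CPM in WT, 123 and 104 CPM in KO1, 119 and 110.0 CPM in KO2, and 121 and 102 CPM in KO3. Sms RNA-seq levels were 54.3 and 52.2 CPM in WT, 52.1 and 51.0 CPM in KO1, 55.9 and 50.3 CPM in KO2, and 56.0 and 45.1 CPM in KO3. The RNA changes of both genes lay between -0.10 and 0.00, with confidence intervals within -0.26 to 0.19. Footprints of Srm, from 131 to 166 CPM over all libraries, were not called either.

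Footprints of Sms, which makes spermine, were 56.2 and 49.98 CPM in WT, 43.9 and 51.2 CPM in KO1, 51.9 and 49.0 CPM in KO2, and 43.3 and 39.1 CPM in KO3. They were lower in KO3 by a log2 change of -0.38 (SE 0.126, adjusted p = 0.0173). The call was lost with DESeq2 (adjusted p = 0.371) and with thinned libraries (adjusted p = 0.185). It was also lost without WT replicate 1 (change -0.28) and without KO3 replicate 2 (change -0.32).

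**Figure D5:**
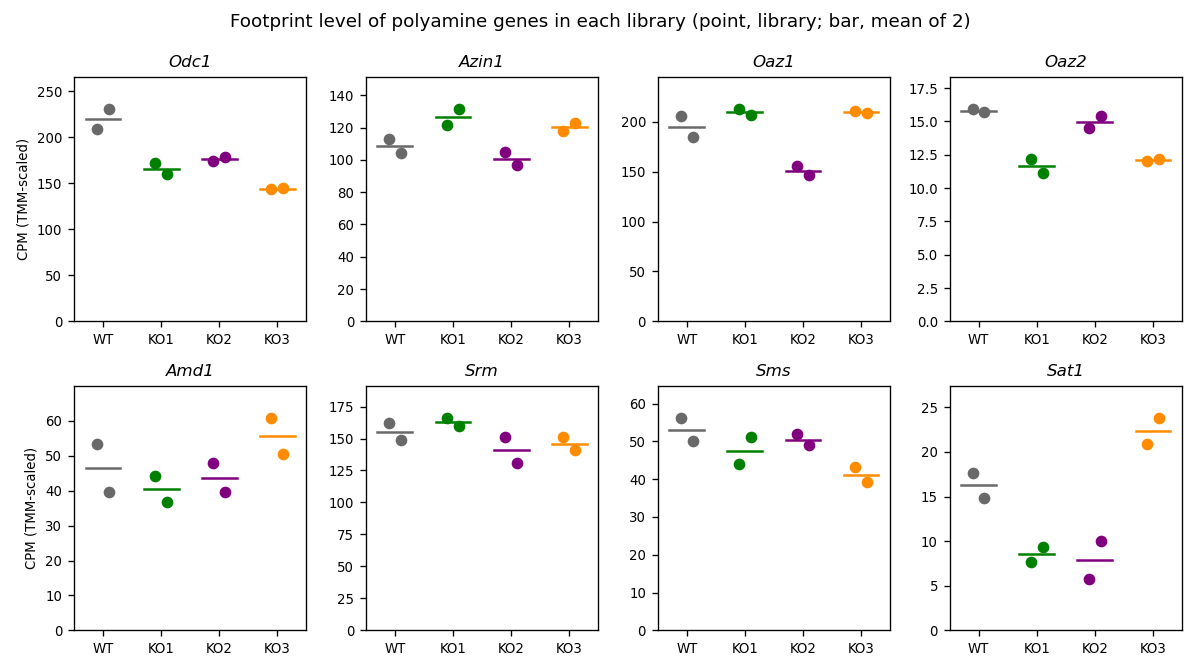
Footprint level (vertical axis, CPM on TMM-scaled library totals, starting at 0) of the 8 genes in each Ribo-seq library of WT, KO1, KO2 and KO3, with bars at the mean of 2. Odc1 is lower in every clone, Sat1 is lower in KO1 and KO2, and Oaz1 is lower in KO2.

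Sat1, the acetyltransferase that starts polyamine catabolism, showed the largest single change of the 8 genes in RNA and in footprints, though not the largest in every clone. Its RNA-seq levels were 21.5 and 25.1 CPM in WT, 11.3 and 16.3 CPM in KO1, 18.7 and 22.8 CPM in KO2, and 32.4 and 31.9 CPM in KO3. KO1 lay below WT and KO3 above, and KO2 overlapped. Sat1 RNA fell by 0.76 on the log2 scale in KO1 (SE 0.148, adjusted p = 2.49e-05) and rose by 0.46 in KO3 (SE 0.114, adjusted p = 0.000486), while the change in KO2 was -0.16 (95% confidence interval -0.44 to 0.12, adjusted p = 0.448). The summed hepatocyte markers, though not every single marker, stood in the same order of lines (KO1, KO2, WT, KO3). Their part in this result was not tested.

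Footprints of Sat1 were 17.6 and 14.9 CPM in WT, 7.69 and 9.39 CPM in KO1, 5.76 and 10.1 CPM in KO2, and 20.9 and 23.8 CPM in KO3. The values of KO1 rest on 38 and 11 footprints and those of KO2 on 23 and 30. The log2 changes were -1.04 in KO1 (SE 0.254, adjusted p = 0.00125), -1.11 in KO2 (SE 0.254, adjusted p = 0.00309) and 0.42 in KO3 (SE 0.187, adjusted p = 0.0866). With DESeq2 the first 2 had adjusted p of 0.311 and 0.299, and without KO1 replicate 1, without KO2 replicate 1 or without WT replicate 1 they were not called (adjusted p = 0.211 in KO1, 0.105 in KO2, and 0.0753 and 0.0681, respectively). In KO2, where RNA was not called, log2 TE of Sat1 was -1.70 and -1.18 against -0.29 and -0.76 in WT, a change of -0.95 (95% confidence interval -1.56 to -0.33, unadjusted p = 0.00385, adjusted p = 1.00), which fell to -0.51 when the libraries were thinned to equal depth.

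In TE without a block, no gene of the 8 was called in any clone by edgeR or by DESeq2. With the shared lysate as a block, Oaz1 was called in KO1 (log2 change -0.30, adjusted p = 0.0448), 1 of 8 genes beside 0.711% of all genes. Over all genes, the calls of edgeR made up 0.0942% (KO1), 0.0173% (KO2) and 0.104% (KO3). At an unadjusted p under 0.05 there were 2 of 8 in KO1 (Odc1 and Oaz1), 2 in KO2 (Odc1 and Sat1) and 1 in KO3 (Odc1), beside 7.08%, 4.28% and 6.07% of all genes.

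Whether the changes were equal in the 3 clones was tested for each measure. In RNA, the changes of Odc1, Oaz1, Amd1 and Sat1 differed between clones, which makes 4 of 8 beside 74.0% of all genes. In footprints, those of Odc1, Azin1, Oaz1, Amd1 and Sat1 differed, 5 of 8 beside 59.5% of all genes. With DESeq2's likelihood ratio test, the footprint differences of Odc1, Azin1 and Amd1 were not called (adjusted p = 0.0761, 0.149 and 0.268). With thinned libraries, those of Odc1 and Azin1 were not called by edgeR (adjusted p = 0.223 and 0.0554). The share in RNA lay below that of the whole table, and the share in footprints lay near it.

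The genes whose RNA pattern was closest to a member were found over the 8 RNA-seq libraries and 11755 genes, by the root mean square difference of centred log2 CPM. They were Timp1 for Odc1 (0.051), Psrc1 for Oaz1 (0.040), Fam107b for Amd1 (0.057), Ndor1 for Oaz2 (0.089) and Mblac1 for Sat1 (0.095). Timp1 RNA was 41.9 and 38.5 CPM in WT, 25.4 and 22.8 CPM in KO1, 42.1 and 41.5 CPM in KO2, and 31.3 and 31.2 CPM in KO3, lower in KO1 and KO3 as Odc1 was.

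The neighbouring pathways were read from lists. For the supply of ornithine and arginine, 4 of 8 genes were tested. In RNA, 3 of them fell in KO1, 1 fell in KO2, and 1 rose and 3 fell in KO3, where 46.7%, 20.4% and 45.4% of all genes were called, respectively. The median change of the list was -0.86, -0.25 and -0.34, beside 0.00 over all genes. Ass1, the argininosuccinate synthase that provides arginine, was called in all 3 clones. Its RNA-seq levels were 29.7 and 27.9 CPM in WT, 13.6 and 12.4 CPM in KO1, 19.7 and 18.2 CPM in KO2, and 65.8 and 72.7 CPM in KO3. The log2 change of Ass1 RNA was -1.15 in KO1 (SE 0.133), -0.60 in KO2 (SE 0.123) and 1.26 in KO3 (SE 0.094), and its footprints changed in the same directions (-1.17, -0.72 and 1.196). This order of lines was again that of the summed hepatocyte markers, though not of every single marker, and their part was not tested. Arg2, the mitochondrial arginase that makes ornithine from arginine, fell in RNA in KO1 and KO3 (log2 changes of -1.103 and -3.0004) and in footprints in KO2 and KO3 (-1.21 and -2.404). Oat, which converts ornithine to proline and glutamate precursors, fell in KO1 and KO3 in RNA (-0.62 and -0.41) and in footprints (-0.63 and -0.46). Arg2 and Oat were named after their values were seen, as were the genes of the next paragraph.

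Among 11 genes of polyamine catabolism, antizyme inhibition and transport, 9 were tested in RNA. In KO1, Atp13a3 and Slc3a2 fell (-0.31 and -0.26), in KO2, Paox and Slc18b1 rose (1.04 and 0.84), and in KO3, 3 rose (Atp13a2, Atp13a3 and Slc3a2) and 3 fell (Smox, Azin2 and Slc18b1). These calls made up 2 of 9, 2 of 9 and 6 of 9 genes, beside 46.7%, 20.4% and 45.4% of all genes. The transporter Slc18b1 had the largest of these changes, -3.88 in KO3 (SE 0.410, adjusted p = 1.69e-13), from 59 and 79 RNA counts in WT to 6 and 4. Low counts also underlay Paox (16 and 22 in WT, 40 and 39 in KO2) and Azin2 (28 and 29 in WT, 10 and 12 in KO3). Of the 9 tested genes of the methionine cycle and salvage, 2 were called for KO1, 2 for KO2 and 3 for KO3, which is below the share of all genes in KO1 and KO3 and near it in KO2. Mat2a, which makes S-adenosylmethionine, rose by 0.22 in KO1 and fell by 0.40 in KO3. In the hypusine pathway, by which spermidine modifies eIF5A, Dohh rose by 0.48 in KO1 and fell by 0.41 in KO2, and Dhps rose by 0.36 in KO3. Eif5a itself rose by 0.12 in KO1 and fell by 0.13 in KO3. No gene of the 4 lists was called in TE in any clone by edgeR without a block.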

How the data were processed

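The Ribo-seq and RNA-seq libraries of all 4 Hepa1-6 lines (2 replicates each) were analysed. The authors deposited raw counts per transcript; per the labels and methods, reads were trimmed with fastp 0.21.0, aligned with STAR 2.7.0a to mm10 (GENCODE vM23), and assigned at the A site, without the first and last 5 codons. A read was counted on every transcript it fits. The labels name polyA RNA, the protocol rRNA depletion.

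Here, 1 transcript per gene was kept, filtered by filterByExpr, scaled by TMM within each assay and tested in R 4.3.3 with edgeR 4.0.16 (quasi-likelihood), in 4 libraries (RNA, footprints) or 8 (TE, interaction of genotype and assay). CPM and TPM were computed from these counts. Alternatives included DESeq2 1.42.0, other scalings, thinning, blocks and leaving out each replicate. The tests were checked on simulated data. The methods call the Ribo-seq replicates biological but do not state that they were separate cultures, so p-values measure only the spread between these samples. Per the methods, RNA-seq and Ribo-seq shared lysates, and same-numbered libraries were taken as 1 lysate. The deviations of the 2 assays correlated in each line (r 0.112 to 0.284, 4014 genes). Libraries of different lines reached r 0.373 in RNA, so that these values cannot single out a shared lysate. The genes, lists and naming rule (all 8 genes, list genes called in all 3 clones, the closest RNA pattern) were chosen with earlier results of these data known. Sequences were read from the RefSeq GRCm38 assembly, transcript positions from GENCODE vM21, which for Amd1 gave the transcript of RefSeq length and not the longer one whose counts were used.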

Additional observations from a re-analysis of the deposited data

Results flagged for a closer look

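Differences between the clones were called for the following results by the F test of edgeR over the 3 changes, as adjusted p-values over all genes. In RNA they were 2.73e-13 for Odc1, 1.86e-12 for Oaz1, 1.32e-09 for Amd1 and 8.99e-09 for Sat1. In footprints they were 7.69e-07 for Oaz1, 4.77e-08 for Sat1, 0.00416 for Odc1, 0.00977 for Azin1 and 0.0182 for Amd1. With DESeq2, the footprint differences of Odc1, Azin1 and Amd1 were not called. In TE, the value for Odc1 was 0.000131. No group held more than 2 samples, so that single outlying samples were not tested for.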

How the results depend on the processing

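The counts of called genes in RNA were within 1.5 times in all alternatives, and leaving out single replicates gave 4 to 5 in KO1, 2 in KO2, 3 to 4 in KO3, and 4 to 5 that differed between clones. Footprint calls were less stable. With DESeq2's likelihood ratio test they were 1, 0 and 1 for KO1, KO2 and KO3, and 2 differed between clones; with thinned libraries, 1, 0, 1 and 3; without single replicates, 1 to 2, 1 to 3, 1 to 2, and 3 to 6. In TE, the lysate block gave 1 call in KO1, and the difference of Odc1 between clones was lost by thinning (0 called) and in the leave-one-out range of 0 to 1. With a replicate block, no count changed (5, 2 and 4 calls in RNA, 2, 3 and 2 in footprints and 0 in TE for KO1, KO2 and KO3, with 4, 5 and 1 that differed between clones). Same-numbered libraries of different lines correlated in their deviations at r -0.0033 to 0.373 in RNA and 0.097 to 0.201 in footprints. Since not every pair passed 0.1 and no label ties the numbers across lines, they were not taken as pairs, and whether the lines shared a day or batch is not known. The WT TE percentile of Odc1 was 7.58 among genes with at least 1 count, and that of Amd1 was 13.2 with the 325-codon transcript, an alternative chosen after the data were seen, as was an adjusted p under 0.1. No called change reversed its direction. Where a line was left with 1 sample, that sample was assumed to vary like the others. The causes were not tested. The depth of the smallest Ribo-seq library limits what Oaz2 and Sat1 footprints can show.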
